A study of Mus musculus with 20 samples.

Results

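The miR-101 family in these data is the pair of 3p arms mmu-miR-101a-3p and mmu-miR-101b-3p, taken by name from the small RNA count tables of both cell lines at all stages. They are 2 of the 1063 microRNAs (miRNAs) listed in both tables and 2 of the 813 that were tested. The tables come from female (PGK) and male (E14) mouse embryonic stem cells, grown in 2i medium at day 0 and then moved to N2B27 medium with Activin A and Fgf2 on fibronectin, which converts them to primed epiblast stem cells (EpiSC). Each line was sampled at days 0, 4 and 10 and in the windows of days 19 to 23 and days 27 to 30, in 2 differentiation experiments called replicates 2 and 3 after their labels, which gives 20 libraries in 10 groups of 2. There is 1 line for each sex, so sex and line cannot be told apart. All later stages of a line are compared with the same day 0 libraries. The p-values for levels rest on how far the 2 experiments of a group differ, a spread shared over groups and miRNAs. Those for the ratio of both members rest on the spread over libraries.

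A miRNA guides Argonaute to messenger RNAs that pair with its seed, the bases near its 5′ end, and lowers their translation and stability. The miR-101 family is best known for repressing Ezh2, the methyltransferase of Polycomb repressive complex 2 (PRC2), which places the repressive mark H3K27me3, and this link was described first in human tumours. In mouse embryonic stem cells PRC2 covers the promoters of many developmental genes. Messenger RNAs, Ezh2 included, are not analysed here, so the values below are of miRNAs only.

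The sequences of both members and of their closest relatives are shown first because the family is defined by them. They are the RefSeq entries (GRCm38.p6), written 5′ to 3′ with bases 2 to 8 in capitals.
mmu-miR-101a-3p: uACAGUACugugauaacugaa
mmu-miR-101b-3p: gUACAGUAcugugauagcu
mmu-miR-101c: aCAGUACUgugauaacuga
mmu-miR-144-3p: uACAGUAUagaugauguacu
The entry of miR-101b-3p starts 1 base before that of miR-101a-3p. Set against each other from that point, 17 of 18 bases are alike, with A16G as the 1 substitution from miR-101a-3p to miR-101b-3p, counted from 1 at the 5′ end of miR-101a-3p. Because of the shifted start, bases 2 to 8 read ACAGUAC in miR-101a-3p and UACAGUA in miR-101b-3p, and each of these was held by 1 name in the RefSeq table. The 6 letters ACAGUA, searched on the mature strand within bases 1 to 8, occur in 6 of 1679 mature names, which are the 4 shown and miR-199a-3p and miR-199b-3p. miR-101c equals bases 2 to 20 of miR-101a-3p, so a trimmed read of one can be counted as the other.

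The genes lie apart in the genome (GRCm38). Mir101a is at chr4:101346945-101347027 on the minus strand, where it overlaps an exon of the long noncoding RNA gene E130102H24Rik on the same strand. Mir101b is at chr19:29135279-29135375 on the plus strand, in an intron of Rcl1, a gene of ribosomal RNA processing on the same strand. Mir101c is at chr9:3038669-3038743 on the minus strand, outside annotated genes. None of the 3 has another annotated miRNA gene within 10 kb (0 found for each).
The hairpins from which the members are cut are shown with the 3p arm in capitals, to place the counted arm in its precursor.
Mir101a hairpin: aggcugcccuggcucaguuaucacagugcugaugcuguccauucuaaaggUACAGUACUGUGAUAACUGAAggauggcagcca
Mir101b hairpin: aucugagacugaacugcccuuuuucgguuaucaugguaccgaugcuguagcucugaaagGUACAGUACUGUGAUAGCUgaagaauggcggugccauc

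Libraries held 7112394 to 18031067 miRNA counts, with 863 to 919 miRNAs detected, and 3 counts, the most that a count of 0 allows, were 0.166 to 0.422 CPM (counts per M, mega, of the library total). Both members were far above that in every library, with 17577 to 128571 counts for the pair. CPM below are scaled by TMM (trimmed mean of M values). The day 0 libraries of replicate 3 in both lines are labelled by cell type as differentiating (ESCs-EpiSCs), although their day label and titles give day 0. For the changes of both members and for the ratio between them, values without these libraries are given beside the full fit. As a check of the stages, the summed level of 3 primed miRNAs of the miR-302 cluster was 8287 to 54250 CPM in the 16 later libraries, against 129 to 474 CPM in the 4 day 0 libraries. The sum of 3 miRNAs of the miR-290 cluster, which naive and primed cells share, was 39410 to 118700 CPM later and 129600 to 187400 CPM at day 0.

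The first comparison asks whether the family changed as the cells left the naive state. miR-101a-3p fell in both lines to between 16.4% and 28.5% of its day 0 level, at every later stage. With TMM scaling miR-101b-3p was lower too, at 39.9% to 70.0% of its day 0 level. Its fall passed the test only in the male line at days 19 to 23 and 27 to 30. The pair together made up 0.166% to 0.424% of all miRNA counts in the later libraries, against 0.504% to 0.868% at day 0.

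In female cells miR-101a-3p had 4145 and 4100 CPM at day 0 (replicates 2 and 3), 1496 and 857 CPM at day 4, 991 and 740 CPM at day 10, 638 and 716 CPM at days 19 to 23, and 781 and 761 CPM at days 27 to 30. In male cells it had 7299 and 6571 CPM at day 0, 1925 and 1823 CPM at day 4, 2103 and 1343 CPM at day 10, 1863 and 1634 CPM at days 19 to 23, and 1192 and 1309 CPM at days 27 to 30. In each line all later libraries lay below both day 0 libraries, and the drop was already there in the first sample after the change of medium. How many of all tested miRNAs separate day 0 from the later libraries in this way, here and below, was not counted. By mean level miR-101a-3p held rank 54 of the 813 tested miRNAs in female cells at day 0 and rank 35 in male cells.

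The log2 change of miR-101a-3p in female cells was -1.81 ± 0.33 (SE) at day 4 against day 0 (adjusted p = 0.00054), -2.25 ± 0.33 at day 10 (adjusted p = 0.00011), -2.61 ± 0.34 at days 19 to 23 (adjusted p = 3.13e-05) and -2.42 ± 0.34 at days 27 to 30 (adjusted p = 4.71e-05). These and the following values come from edgeR's quasi-likelihood test with Benjamini-Hochberg adjustment over all 813 miRNAs, with n = 2 libraries a group. In male cells it was -1.89 ± 0.33 at day 4 (adjusted p = 0.00051), -2.01 ± 0.33 at day 10 (adjusted p = 0.00037), -1.99 ± 0.33 at days 19 to 23 (adjusted p = 0.00042) and -2.47 ± 0.34 at days 27 to 30 (adjusted p = 5.94e-05). miR-101a-3p thus passed in 8 of 8 comparisons with day 0. Of all tested miRNAs, 14.6%, 18.8%, 19.3% and 19.4% were called lower at those stages in the female line, and the male line had 18.3%, 17.0%, 18.5% and 21.2%. With 1 library left out, the calls in either direction were 161 to 381 a comparison, against 274 to 354 with all libraries. They were over 1.5 times fewer at female day 10 (215 without its replicate 2), male day 4 (232 without its replicate 2), male day 10 (161 without its replicate 3, 181 without replicate 2 of day 0) and the 2 later male stages (161 to 219 without 1 library of the stage). Without the female day 0 library of replicate 3 the female changes were -2.24 to -2.73, the value furthest from the full fit being that of day 4, at -2.24. That library was also the default TMM reference, so leaving it out changed the scaling as well. With all libraries kept and each in turn as TMM reference, the female day 4 change was -2.235 to -1.81 (median -2.09). The male day 4 change was then -2.19 to -1.89 (median -2.05). Without the male one the male changes were -2.14 to -2.65.

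**Figure D1:**
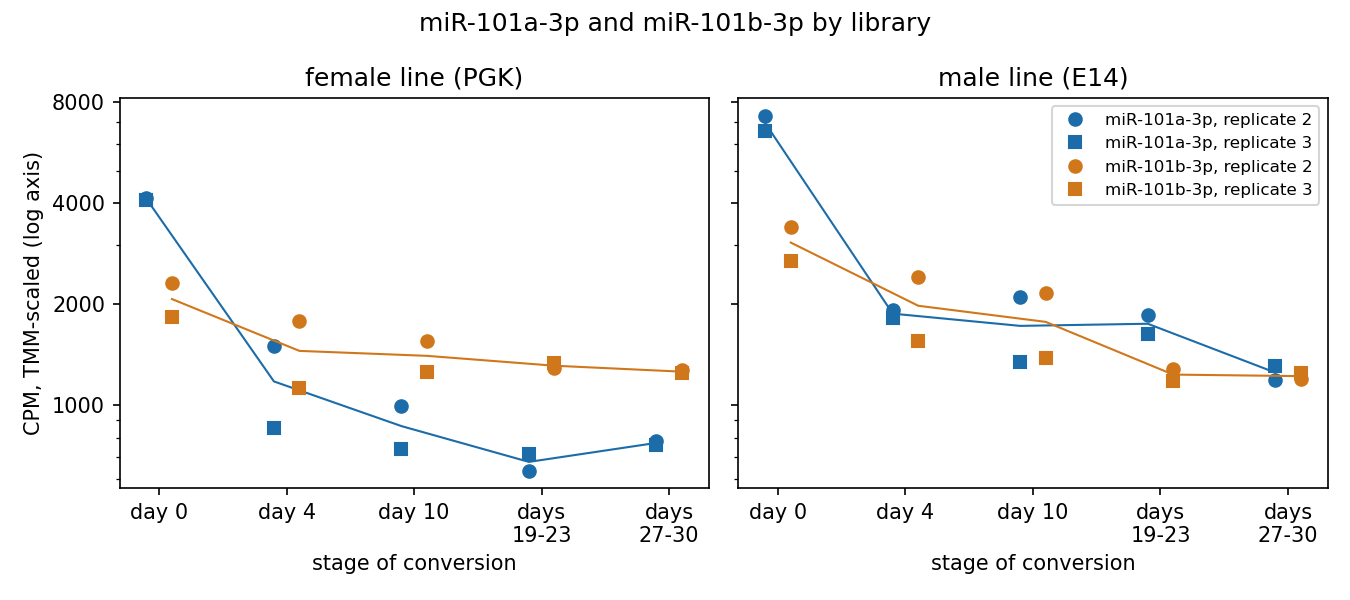
TMM-scaled CPM on a log axis against stage, for miR-101a-3p (blue) and miR-101b-3p (orange) in the female (left) and male line (right). Each point is a library (circles replicate 2, squares replicate 3) and lines join group means. Blue points drop between day 0 and day 4 and end near or below the orange ones.

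In female cells miR-101b-3p had 2308 and 1835 CPM at day 0, 1777 and 1125 CPM at day 4, 1554 and 1251 CPM at day 10, 1286 and 1335 CPM at days 19 to 23, and 1271 and 1245 CPM at days 27 to 30. In male cells it had 3410 and 2698 CPM at day 0, 2403 and 1554 CPM at day 4, 2161 and 1381 CPM at day 10, 1284 and 1182 CPM at days 19 to 23, and 1196 and 1244 CPM at days 27 to 30. Here too all later libraries of a line lay below both of its day 0 libraries with TMM scaling. By library totals female day 0 had 1931 and 1559 CPM, and female days 19 to 23 had 1577 and 1603 CPM. Replicates 2 and 3 of days 4 and 10 were further apart with TMM scaling than the later ones. By library totals they had 979 and 943 CPM at female day 4 and 1338 and 1458 CPM at female day 10. In male cells these were 1656 and 1575 CPM at day 4 and 1685 and 1670 CPM at day 10.

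In male cells the log2 change of miR-101b-3p was -1.31 ± 0.34 at days 19 to 23 (edgeR adjusted p = 0.0083) and -1.32 ± 0.34 at days 27 to 30 (edgeR adjusted p = 0.0073). At male day 4 it was -0.63 ± 0.34 (adjusted p = 0.145) and at male day 10 -0.79 ± 0.34 (adjusted p = 0.085). With the experiment as a replicate block the male day 10 change was -0.80 and passed, with an edgeR adjusted p of 0.037. In female cells the changes were -0.51 ± 0.33 (day 4), -0.56 ± 0.34 (day 10), -0.66 ± 0.34 (days 19 to 23) and, by the last window, -0.72 ± 0.34, with adjusted p between 0.096 and 0.235. miR-101b-3p thus passed in 2 of 8 comparisons, and the calls at day 4 in both lines and at female days 27 to 30 depended on how libraries were scaled: with each of the 20 libraries in turn as TMM reference, female day 4 passed with 8 of them, male day 4 with 9 and female days 27 to 30 with 12, while the 2 late male calls passed with all 20. Over these references the change was -0.93 to -0.51 at female day 4 (median -0.80). At male day 4 it was -0.94 to -0.63 (median -0.79). At day 4 the fit reported thus lay at the weak end in both lines. Without the male day 0 library of replicate 3 the male changes were -1.05 at day 4, -0.999 at day 10 and -1.58 and -1.59 at the last 2 stages. Without the female one the female changes were -1.09, -0.854, -0.932 and -0.999 from day 4 to days 27 to 30. These fits leave 1 day 0 library in the line, so only the changes are given. Shifts were not confined to these libraries. Male day 4 was -0.93 without the female day 10 library of replicate 3, and female day 4 was -0.89 without the male day 10 library of replicate 3. With library totals in place of TMM the male change at days 19 to 23 was -0.60 and no longer passed (edgeR adjusted p = 0.069).

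**Figure D2:**
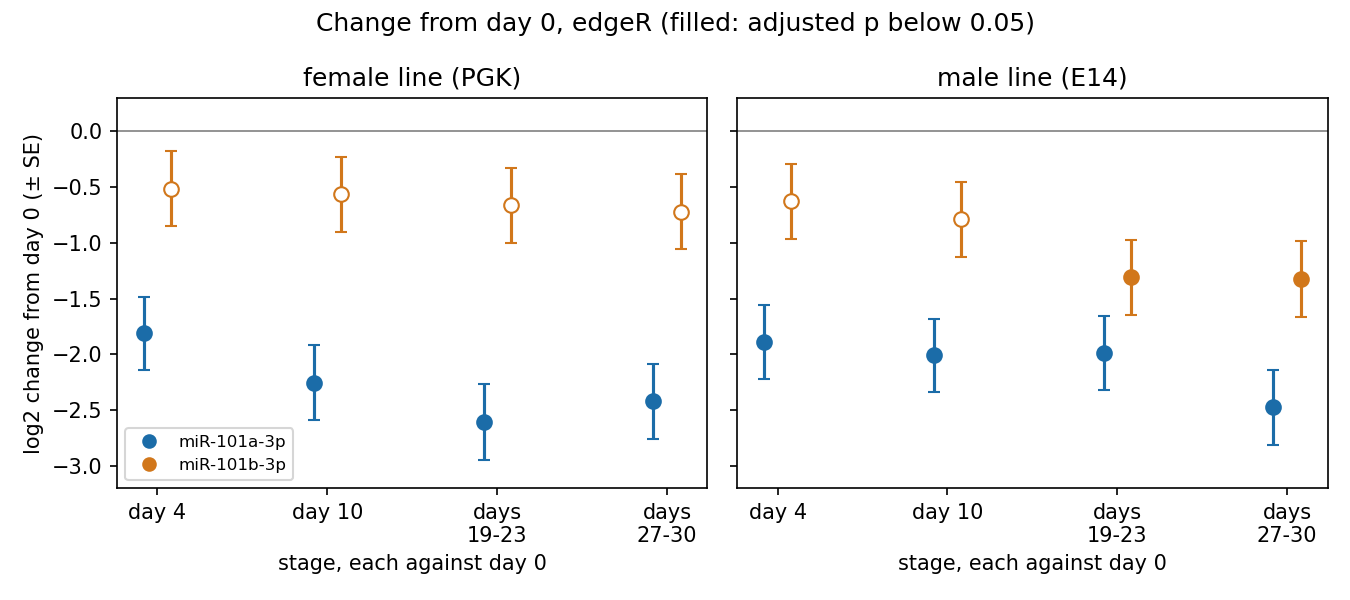
Log2 change of each later stage against day 0 (± SE, edgeR) for miR-101a-3p (blue) and miR-101b-3p (orange) in the female (left) and male line (right). Filled points passed an adjusted p of 0.05: all 8 of miR-101a-3p and 2 of 8 of miR-101b-3p.

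Averaged over both lines and the 4 later stages, miR-101a-3p changed by -2.18 ± 0.16 on the log2 scale against day 0 (edgeR adjusted p = 1.66e-08) and miR-101b-3p by -0.81 ± 0.18 (edgeR adjusted p = 0.00098), beside 31.1% of all tested miRNAs called lower. Within single experiments both members were below day 0, with TMM scaling, in 8 of 8 comparisons of each replicate. The log2 changes were -2.70 to -1.47 (replicate 2) and -2.52 to -1.85 (replicate 3) for miR-101a-3p. For miR-101b-3p they were -1.51 to -0.38 and -1.19 to -0.46. By library totals miR-101b-3p in female replicate 3 had 1603 CPM at days 19 to 23 and 1559 CPM at day 0. Replicate 2 does not contain the day 0 libraries with the conflicting label.

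Between neighbouring stages after day 4 no change of either member passed. Of 12 such tests 0 passed in edgeR, 0 had an unadjusted p under 0.05 and 0 passed in DESeq2, with log2 changes of -0.52 to 0.19. Of all tested miRNAs, 6.52% passed between day 4 and day 10 in female cells and 8.12% in male cells, 0.369% and 0.246% between day 10 and days 19 to 23, and 0% in either line at the last step. The 2 shares between day 4 and day 10 rest on single libraries: the 53 female calls were 1 without the female day 10 library of replicate 3, 8 without that of replicate 2 and 4 without the female day 4 library of replicate 2, and the 66 male calls were 0 without the male day 10 library of replicate 2 and 4 and 39 without the male day 4 libraries of replicates 2 and 3. Ordered by mean level, the day 0 groups of both lines stood first for miR-101a-3p (4122 ± 31.8 CPM in female and 6935 ± 515 CPM in male cells, SD, n = 2) and their libraries did not overlap with any later group. For miR-101b-3p male day 0 (3054 ± 504 CPM) stood first, followed by female day 0 (2072 ± 335 CPM), whose libraries overlapped with those of male day 4 (1978 ± 600 CPM). Among the later groups, neighbours in that order overlapped, except male day 10 and male days 27 to 30 and, at the low end, female days 27 to 30 and 19 to 23 for miR-101a-3p, and female days 19 to 23 and 27 to 30 for miR-101b-3p.

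Markers of other cell types were summed in the later and the day 0 libraries, with no test. The summed level of 4 mesenchymal or feeder markers (miR-199a-3p, miR-214-3p, miR-143-3p and miR-145a-5p, all 4 listed) was 355 to 4088 CPM in the 16 later libraries, against 2864 to 7376 CPM in the 4 day 0 libraries, and most of it was miR-143-3p. miR-214-3p was at 0 in all 4 day 0 libraries and had means of 25.7 CPM (female) and 24.9 CPM (male) at days 27 to 30. Mean miR-199a-3p was 543 CPM at that stage and 34.2 CPM at day 0 in female cells, and 390 and 233 CPM in male cells. At male day 4 it was lower, at 35.2 CPM. By the last stage these 2 thus went against the sum. The sum of 2 neural markers (miR-9-5p and miR-124-3p) was 209 to 1498 CPM later and 138 to 252 CPM at day 0. Mean miR-9-5p was 310 CPM at days 27 to 30 and 186 CPM at day 0 in female cells, and 780 and 187.5 CPM in male cells. Mean miR-124-3p went the other way, with 18.1 and 22.8 CPM in female and 15.5 and 73.3 CPM in male cells. At female day 4 it was higher, at 47.3 CPM. The sum of the 3 blood markers analysed here (of 4 in the list) was 0.075 to 2.51 CPM later and 0.647 to 1.85 CPM at day 0. The later and day 0 ranges overlapped for the mesenchymal and the neural markers, and for the blood markers the day 0 range lay within the later one. The part of these markers in the fall of miR-101a-3p was not tested. In bulk libraries fewer cells with a miRNA and less of it per cell cannot be told apart.

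The next comparison asks whether both members moved by the same factor. They did not: the count of miR-101b-3p per count of miR-101a-3p was higher at every later stage than at day 0 in both lines. This ratio is taken within a library and needs no scaling between libraries. It is a ratio of counts and not of molecules, since a library can capture 2 sequences with unequal efficiency.

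In female cells the ratio was 0.557 and 0.448 at day 0 (replicates 2 and 3), 1.19 and 1.31 at day 4, 1.57 and 1.69 at day 10, then 2.02 and 1.86 (days 19 to 23) and finally 1.63 and 1.64 (days 27 to 30). In male cells it was 0.467 and 0.411 at day 0, 1.25 and 0.852 at day 4, 1.03 and 1.03 at day 10, then 0.689 and 0.723 (days 19 to 23) and finally 1.003 and 0.950 (days 27 to 30). All 16 later libraries lay above all 4 day 0 libraries. miR-101b-3p thus made up 40.8% to 66.8% of the pair later and 29.1% to 35.8% at day 0.

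The mean log2 ratio was higher by 1.376 in the later libraries than at day 0 (16 against 4 libraries, exact permutation test within lines, two-sided, p = 0.000494, adjusted over 6 such tests 0.00296), which is the smallest p that its 2025 arrangements can give. In the female line alone the difference was 1.674 and in the male line alone 1.078 (exact permutation p = 0.0222 each, the smallest that 45 arrangements allow, adjusted 0.0267). The 4 series of a line and an experiment gave 1.498 and 1.849 for the female line, and 1.054 and 1.101 for the male line. Without the day 0 library of replicate 3 the difference was 1.355 (female library left out) and 1.313 (male library left out), with an exact permutation p of 0.00247 each. In replicate 2 alone the difference was 1.276 (exact permutation p = 0.04, the smallest it allows). These tests treat libraries as exchangeable, although the stages of an experiment come from 1 culture series and so from fewer independent units than libraries.

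**Figure D3:**
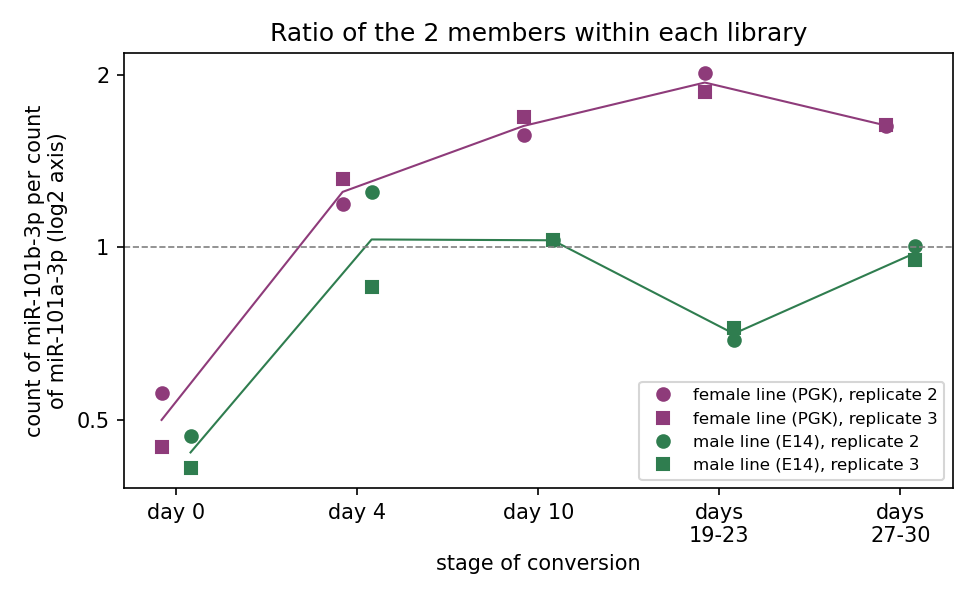
Counts of miR-101b-3p per count of miR-101a-3p on a log2 axis against stage, 1 point a library (circles replicate 2, squares replicate 3), for the female (purple) and male line (green), with lines through the group means. All day 0 points lie below 0.56 and all later ones at or above 0.689, and the 2 male points of day 10 coincide at 1.03.

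Between the lines, miR-101a-3p was lower in female than in male cells at every stage, but no difference passed the adjustment. Every female library lay below both male libraries of its stage. How many of all tested miRNAs separate the lines in this way was not counted. The female minus male log2 difference was -0.75 ± 0.32 at day 0 (edgeR adjusted p = 0.201), -0.67 ± 0.32 at day 4 (adjusted p = 0.252), -0.99 ± 0.32 at day 10 (adjusted p = 0.203), -1.37 ± 0.32 at days 19 to 23 (adjusted p = 0.199) and -0.70 ± 0.32 at days 27 to 30 (adjusted p = 0.599). For miR-101b-3p it was -0.56, -0.45, -0.34, 0.09 and 0.04 at these stages (SE 0.33 each), and the sign of the last 2 turned under other scalings and filters. Of these 10 tests 0 passed in edgeR and 4, all of miR-101a-3p, had an unadjusted p under 0.05. DESeq2 called miR-101a-3p lower in female cells at day 10 and at days 19 to 23. Of all tested miRNAs, 8.73% differed between the lines at day 0, 5.04% at day 4 and 0% at each of the 3 later stages. The 41 calls at day 4 were 0 and 18 without the male day 4 libraries of replicates 3 and 2 and 13 without the female day 4 library of replicate 2. With 1 library left out the difference of miR-101a-3p stayed negative at each stage, and at day 4 it was -1.16 without the female day 4 library of replicate 2 and -0.32 without that of replicate 3. With each of the 20 libraries in turn as TMM reference, the day 4 difference was -0.98 to -0.67 and did not pass.

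The change from day 0 was not shown to differ between the lines for either member. Of 8 tests of the female change minus the male change 0 passed in edgeR, 0 had an unadjusted p under 0.05 and 0 passed in DESeq2, with differences of -0.62 to 0.65 on the log2 scale (SE 0.45 to 0.47). Of all tested miRNAs 0%, 0%, 0% and 0.369% passed that test at day 4, day 10, days 19 to 23 and days 27 to 30.

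Taken over libraries, the balance of the pair differed between the lines. At the later stages the geometric mean of the ratio of miR-101b-3p to miR-101a-3p was 1.59 in female cells (lowest 1.19, highest 2.02) and 0.925 in male cells (lowest 0.689, highest 1.25), 8 libraries each. The ranges touch only through the male day 4 library of replicate 2. The mean log2 ratio was higher in female cells by 0.784 over the later stages (exact permutation within stages, two-sided, p = 0.00309, adjusted 0.00617) and by 0.665 over all 5 stages (exact permutation p = 0.00103, adjusted 0.00309). Over all 5 stages it was 0.832 without the female day 0 library of replicate 3 (exact permutation p = 0.000514) and 0.559 without the male one (exact permutation p = 0.0262). Within replicate 2 alone this second difference was 0.608 and within replicate 3 alone 0.723, with exact permutation p = 0.125 and 0.0625, where 5 libraries against 5 cannot go below 0.0312. At day 0 the difference was 0.189 (exact permutation p = 0.667, where 2 against 2 libraries cannot go below 0.167). These tests too treat libraries as exchangeable, although the libraries of each line come from 2 experiments only. Over all libraries, line labels were permuted freely within a stage, so these p-values leave out the pairing of female and male libraries by experiment. Whether the change of the ratio from day 0 differed between the lines was not tested.

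The passenger arms and the third gene copy were measured in the same libraries. miR-101a-5p, the arm of the Mir101a hairpin that is mostly discarded, had 220 and 37.7 CPM in female cells at day 0 and 8.37 to 21.3 CPM at the later stages. In male cells it had 174 and 38.4 CPM at day 0 and 19.3 to 67.1 CPM later. In both lines replicate 2 stood above replicate 3 at day 0, so that each count of miR-101a-5p there came with 18.9 (female) and 42.0 (male) counts of miR-101a-3p in replicate 2, but with 109 and 171 in replicate 3. edgeR called it lower in female cells at 4 of 4 stages, with -3.14 ± 0.86 at day 4 (adjusted p = 0.010) and -2.95 ± 0.86 at days 27 to 30 (adjusted p = 0.012), and in male cells at 0 of 4. Without the female day 0 library of replicate 2 the changes were -1.57 at day 4 and -1.18 at days 27 to 30 and did not pass (edgeR adjusted p = 0.136 and 0.260).

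**Figure D4:**
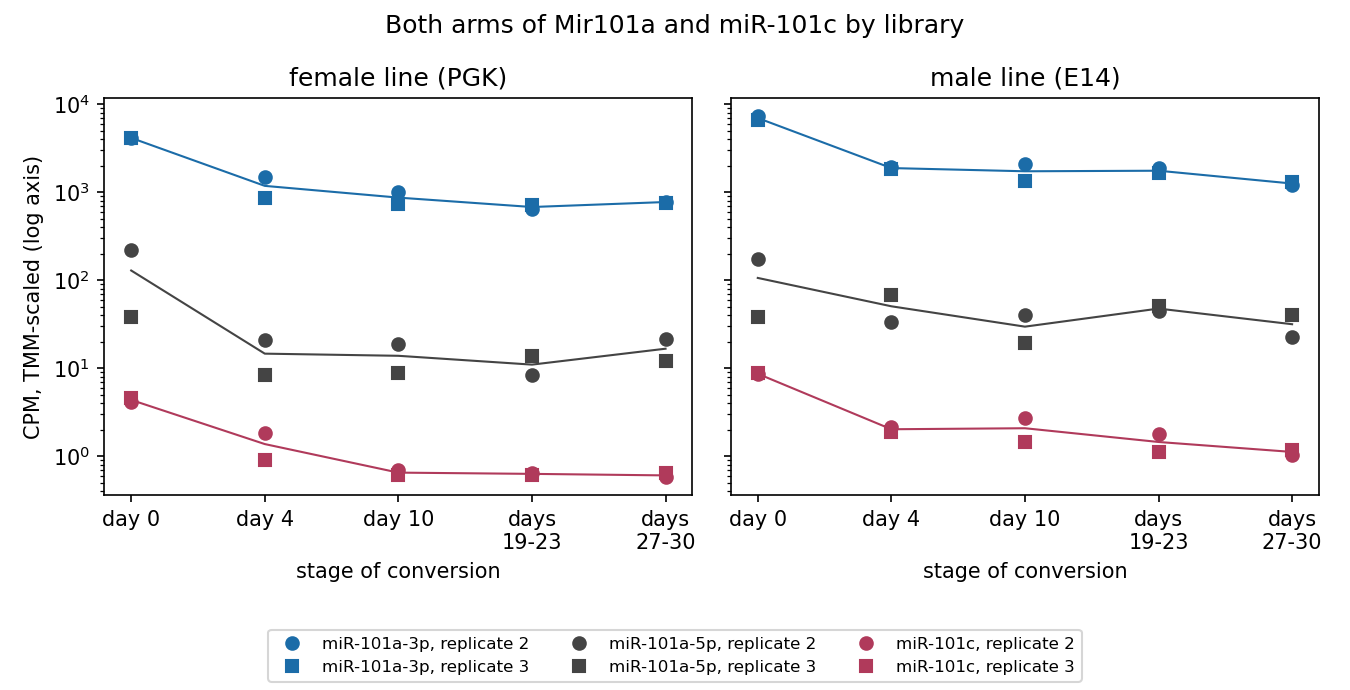
TMM-scaled CPM on a log axis against stage for miR-101a-3p (blue), miR-101a-5p (grey) and miR-101c (red) in the female (left) and male line (right), 1 point a library (circles replicate 2, squares replicate 3), with lines through group means. The grey day 0 points of the replicates lie apart in both lines, while the blue and red ones lie together.

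miR-101b-5p was near the limit of detection, with 5 to 22 counts a library and 502 to 3567 counts of miR-101b-3p for each of its own, and it passed in 0 of 8 comparisons with day 0 (0 at an unadjusted p under 0.05). miR-101c had 5 to 122 counts, or 0.692 to 1.34 for every 1000 counts of miR-101a-3p, and was called lower at 8 of 8 later stages, by -1.66 to -2.93 on the log2 scale (edgeR adjusted p between 0.00041 and 0.015). Without the female day 4 library of replicate 3 its female day 4 change was -1.23 and did not pass (edgeR adjusted p = 0.148). Since its sequence lies within that of miR-101a-3p, its counts are uncertain.

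Of the relatives that share ACAGUA, miR-144-3p, an erythroid miRNA, had 0 to 13 counts a library and was not tested. miR-199a-3p, a miRNA of mesenchymal cells, had 543 ± 75.7 CPM in female cells at days 27 to 30 and 34.2 ± 14.5 CPM at day 0 (SD, n = 2), and 390 ± 382 CPM and 233 ± 159 CPM in male cells. miR-199b-3p has the same RefSeq sequence, so reads cannot be told apart between them.

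Other miRNAs reported to target Ezh2, mostly from human cancer cells, were taken as a list of 19, of which 18 were tested. In female cells 9 were called lower and 0 higher at day 4 against day 0, and 10 lower and 1 higher at days 27 to 30. In male cells 11 were called lower and 0 higher at day 4, and 11 lower and 1 higher at days 27 to 30. The median log2 change of the list at days 27 to 30 was -1.85 in female and -1.56 in male cells, against 0.01 and 0.05 over all tested miRNAs, and at day 4 it was -1.33 and -1.72, against 0.03 and 0.09. With miRNAs at 0 in a group set to the bound of 3 counts, and those under that floor in both groups left out, the day 4 medians were -1.35 and -1.92 and the later ones the same as before. Of all tested miRNAs in the female line, 14.6% were called lower and 24.5% higher at day 4, and 19.4% lower and 24.1% higher at days 27 to 30. In the male line 18.3% were called lower and 25.1% higher at day 4, and 21.2% lower and 19.6% higher at days 27 to 30. The 1 called higher was miR-214-3p in both lines, at 25.7 ± 8.69 CPM in female and 24.9 ± 28.3 CPM in male cells at days 27 to 30, and at 0 in all day 0 libraries. It is one of the mesenchymal markers above.

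The list holds 9 let-7 and miR-98 sequences that are near copies of each other, so their counts are not independent and reads may be shared among them. Set apart after the values were seen, and with no test, these 9 held 8 of the lower calls in female cells at either stage, and 7 at day 4 and 6 at days 27 to 30 in male cells, with medians of -4.41 and -4.33 in female and -4.38 and -3.85 in male cells. Of the other 9 tested members, 1 was called lower and 0 higher in female cells at day 4, and 2 lower and 1 higher at days 27 to 30, with medians of -0.03 and -0.33. In male cells 4 of them were called lower and 0 higher at day 4, and 5 lower and 1 higher at days 27 to 30, with medians of -0.61 and -0.96. At each stage 1 of these male lower calls was miR-137-3p, whose mean was below the level of 3 counts. It had 0.105 ± 0.009 CPM at day 4 and 0.075 ± 0.105 CPM at days 27 to 30. At male day 0 it had 3.47 ± 4.27 CPM (SD, n = 2), so its replicates lay far apart. The most abundant members of the list were miR-26a-5p, miR-25-3p and miR-30d-5p. miR-26a-5p, which targets Ezh2 in human and mouse cells, had 7868 ± 229 CPM in female cells at days 27 to 30 and 26040 ± 4877 CPM at day 0, and 10750 ± 2498 CPM and 40530 ± 2340 CPM in male cells (SD, n = 2). It fell by 1.73 ± 0.37 on the log2 scale in female cells (edgeR adjusted p = 0.0016) and by 1.91 ± 0.37 in male cells (edgeR adjusted p = 0.0011). miR-25-3p, of the miR-106b cluster, fell by 1.20 ± 0.41 in male cells (edgeR adjusted p = 0.031), and its female value was -0.79 ± 0.41 (adjusted p = 0.128). miR-30d-5p fell by 1.05 ± 0.33 in female and 0.96 ± 0.33 in male cells (edgeR adjusted p = 0.018 and 0.031). By value, the log2 change of miR-101a-3p at that stage was below those of these 3 in both lines, a difference that was not tested.

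**Figure D5:**
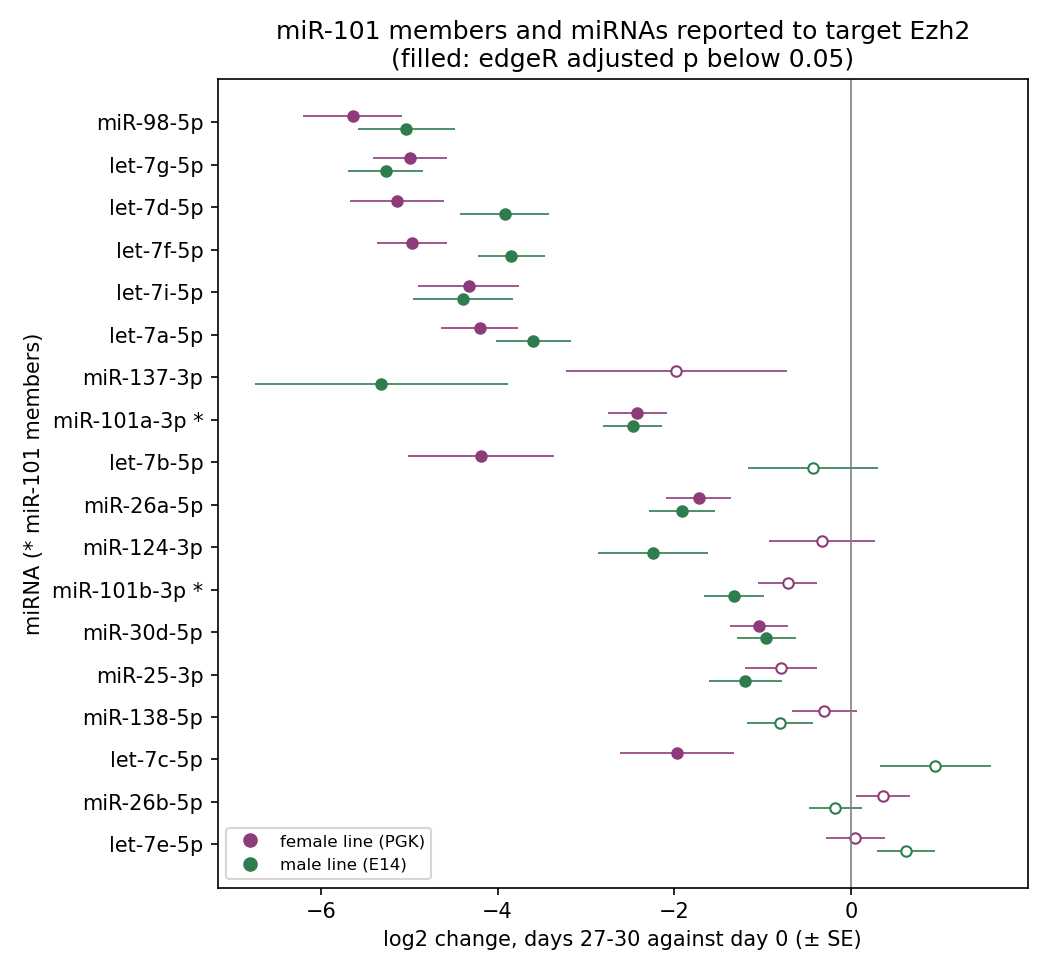
Log2 change of days 27 to 30 against day 0 (± SE, edgeR) for both miR-101 members (starred) and the miRNAs of the Ezh2 list, in the female (purple) and male line (green), sorted by the sum of both changes. Filled points passed an adjusted p of 0.05. miR-214-3p and miR-217-5p, at 0 in a day 0 group, are left out because no fold against 0 can be drawn.

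A second list held 10 miRNAs reported to target Suz12, Bmi1 or Cbx7, further Polycomb genes, and all 10 were tested. In female cells 1 was called lower and 5 higher at day 4, and 3 lower and 6 higher at days 27 to 30. In male cells 2 were called lower and 3 higher at day 4, and 3 lower and 5 higher at days 27 to 30. The shares of all tested miRNAs called at these stages are those given for the Ezh2 list, 14.6% to 21.2% lower and 19.6% to 25.1% higher. Its median log2 changes were 1.47 and 0.96 at day 4 in female and male cells, against 0.03 and 0.09 over all tested miRNAs, and 1.84 and 1.16 at days 27 to 30, against 0.01 and 0.05. Its most abundant members were miR-16-5p, which fell by 1.27 ± 0.28 in female and 1.23 ± 0.28 in male cells at days 27 to 30 (edgeR adjusted p = 0.0019 and 0.0032), and miR-125a-5p, which rose by 1.84 ± 0.31 and 2.26 ± 0.31 (edgeR adjusted p = 0.00021 and 6.12e-05). The third, miR-200b-3p, an epithelial miRNA, rose by 1.84 ± 0.57 in female cells (edgeR adjusted p = 0.017) and had a change of 0.35 ± 0.55 in male cells (adjusted p = 0.645).

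Across the 20 libraries, the miRNAs most like each member were found by Pearson correlation of log2 CPM among 524 miRNAs with a mean of at least 10 CPM. For miR-101a-3p they were miR-93-5p (0.931), miR-26a-5p (0.926), miR-301b-3p (0.923), miR-499-5p (0.917) and miR-700-3p (0.910). For miR-101b-3p they were miR-106b-3p (0.940), miR-186-5p (0.920), miR-27b-3p (0.904), miR-25-3p (0.903) and miR-32-5p (0.902). The members correlated with each other at 0.841, which was rank 17 for miR-101a-3p and rank 19 for miR-101b-3p. These correlations are descriptions over libraries that share the step between day 0 and the later stages, their scaling and their lines.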

How the data were processed

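Small RNA libraries were made from Trizol-extracted total RNA with Illumina's protocol, per the labels' protocols, and the submitters' processing notes name the builds GRCm38 and mm10 and the tools CASAVA 1.8.2 and DESeq2 (no version). Which aligner and miRNA annotation were used, and how multiply matching reads were counted, is not given in the sources used here. Raw counts per miRNA and library make up the authors' deposited tables, 1 for each line, and all tests used these counts. The deposited normalized signal equals the counts divided by 1 size factor per library (checked), and the deposited log2 values are the authors' variance-stabilized table. Both served for checks only.

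Libraries were grouped by line and day label. Of 1109 miRNAs listed for the female and 1091 for the male line, the 1063 shared ones were used. edgeR 4.0.16 (R 4.3.3) fitted 1 coefficient per group over all 20 libraries, with TMM factors of 0.551 to 1.43 and filterByExpr by group, which left 813 miRNAs with 99.997% of the counts, 10 residual degrees of freedom and a common dispersion of 0.171. P-values were adjusted by Benjamini-Hochberg within each contrast, with a threshold of 0.05. Likeness used a prior count of 0.5. The alternatives were scaling by RLE or by library totals, testing without a filter or with a mean of at least 10 CPM, a replicate block, DESeq2 1.42.0, fitting each line alone, summing the counts of both 3p arms and miR-101c, and leaving out each library in turn, which assumes that the remaining library of the group varies as the others do. Taking each library in turn as TMM reference was added after seeing the data. The fit was tested on simulated data.

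The experiment names gave the replicate numbers. Where a female and a male library shared stage and experiment, their deviations from the group means correlated at 0.413, 0.487, 0.310, 0.352 and 0.124 from day 0 to the last stage, all above 0.1, so the numbers were taken as pairing samples. The fit reported and the permutation tests over all libraries did not use this pairing. The replicate block allowed 1 shift between the experiments over all groups. Libraries of 1 line and experiment at different stages correlated less evenly, at -0.0693 to 0.396. Replicates of a group differed beyond counting noise (by chi-square, 316 or more for each degree of freedom), so none was counted as a repeat of another. Depth limits cover counting error only.

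All 5 miR-101 names of the tables matched RefSeq sequences, and hosts came from the GENCODE M21 annotation. Named from the lists are the 3 members with the highest mean CPM, and miR-214-3p and miR-137-3p, chosen after their values were seen. The members and lists were chosen with earlier results of these data known.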

Additional observations from a re-analysis of the deposited data

How the results depend on the processing

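Of 1215 repeats under other settings of the results on both members, their ratio and the lists, 1125 kept direction and side of the threshold, 59 newly passed, 3 no longer passed and 28 counts moved by over 1.5 times. Of 850 further repeats, of miR-101a-5p, miR-101c and call counts over all miRNAs, 88 moved, 2 newly passed, 5 no longer passed and 1 turned its direction. The 8 changes of miR-101a-3p against day 0 and the ratio of later stages against day 0 passed in all settings run. Those of miR-101b-3p stayed negative in all of them, but their calls moved with scaling, and the cause was not tested. At female day 4 it passed with library totals (-0.86), a mean of at least 10 CPM (-0.90) and the line alone (-0.92). At male day 4 it passed with RLE (-0.87), library totals (-0.68), at least 10 CPM (-0.79), DESeq2 (-0.85) and the line alone (-0.94). At male day 10 it passed with at least 10 CPM (-0.82) and the replicate block (-0.80), and at female days 27 to 30 with DESeq2 (-0.80) and as the median over TMM references (-0.83). At male days 19 to 23 it did not pass with library totals (-0.60). With the counts of both 3p arms and miR-101c summed the family passed in all 8 comparisons. They gave -1.61, -1.53, -1.70 and -1.68 in female cells and -1.66 and -1.59 at male days 4 and 10. The default TMM reference was the female day 0 library of replicate 3.

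Leaving out 1 library moved miR-101b-3p between -1.09 and -0.22 at female day 4, -0.999 and -0.53 at female days 27 to 30, -1.17 and -0.64 at male day 4, and -1.11 and -0.61 at male day 10. It moved the female minus male difference of miR-101a-3p at day 0 between -1.001 and -0.76, past the threshold without the female or the male day 10 library of replicate 3 (-0.97 each), and between -1.16 and -0.32 at day 4, -1.46 and -0.81 at day 10, -1.60 and -1.38 then and, last, -0.92 and -0.61, past the threshold in none of these 4 stages. That difference passed at day 4 with library totals (-1.04) and at least 10 CPM (-0.997), at day 10 with DESeq2 (-1.12) and at days 19 to 23 with library totals (-1.56) and DESeq2 (-1.62). The female minus male ratio did not pass within replicate 2 (0.608) or 3 (0.723) alone. The change of mmu-miR-101a-5p at male day 4 lay between -2.02 and 0.0849 with 1 library left out, turning positive without the male day 0 library of replicate 2. The replicate block changed no other call of a member.

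In the Ezh2 list, higher calls at days 27 to 30 were 0 in female cells with at least 10 CPM, and in male cells 4 with library totals, 0 with at least 10 CPM and 2 with DESeq2. Its lower calls at male days 27 to 30 were 7 to 12 when 1 library was left out, 7 without the male library of replicate 2 at that stage. In the second list, lower calls at female day 4 were 2 with at least 10 CPM, DESeq2 or the line alone and 0 to 2 with 1 library left out, and lower calls at male days 27 to 30 were 1 with library totals. Its higher calls with 1 library left out were 2 to 5 at female day 4 (2 without replicate 2 at day 0 or day 4), 1 to 3 at male day 4 (1 without replicate 3 at day 0), and 3 to 5 at male days 27 to 30 (3 without replicate 2 at day 0 or replicate 3 at that stage).

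Over all tested miRNAs, RLE moved the median log2 change by -0.151 (female day 4) and -0.207 (male day 4), and library totals by -0.237 at female day 4 and by up to 0.683 later (male days 19 to 23), so changes of the members are relative to those medians. Of the called miRNAs, 46.1% were higher at male day 4 with RLE, against 57.8% with TMM. With library totals 48.1%, 68.6% and 65.7% were higher at female day 4, days 19 to 23 and days 27 to 30, against 62.6%, 52.3% and 55.4% with TMM, and 69.2% and 68.9% at male days 19 to 23 and 27 to 30, against 46.2% and 48.0%. Counts of called miRNAs moved most where few were called. With all libraries kept, male cells had 19 to 110 from day 4 to day 10 (66 in the fit reported) and female cells 49 to 76 (53), the next male steps 2 (0 to 11) and 0 (0 to 3). Between the lines day 4 had 41 (35 to 78), day 10 had 0 (0 to 29, 17 with the replicate block) and the later stages 0 each (up to 2 and 1). The difference of changes had 0, 0, 0 and 3 from day 4 on, and up to 16, 20, 37 and 39 with DESeq2 (0, 0, 15 and 20 with the replicate block). With 1 library left out, day 4 to day 10 had 1 to 67 calls in female and 0 to 76 in male cells, the line difference 0 to 47 at day 4 and 0 to 13 at day 10, and the difference of changes up to 3, 6, 19 and 12.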
